A study of Mus musculus with 15 samples.

Results

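Satellite cells are the stem cells of skeletal muscle, and reserve cells are the undifferentiated, quiescent cells that remain unfused beside myotubes when a myoblast line differentiates. The 8 genes described here, Pax7, Cd34, Gas1, Cxcr4, Vcam1, Itga7, Sdc3 and Sdc4, mark or act in these cells. They were chosen by symbol from the 42807 symbols of the count table, with earlier results of these data known. All 8 were among the 14461 genes with enough counts to test. Their levels were measured by mRNA sequencing in 15 libraries of C2C12 myotubes, 3 for each of 5 groups. C2C12 is a mouse myoblast line, so the libraries represent 1 line and hold no tissue neighbours.

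The tested groups received Jakyak-gamcho-tang (JGT), a hot-water extract of equal parts of peony root (Paeoniae radix) and licorice root and rhizome (Glycyrrhizae radix et rhizoma), at 20, 100 or 500 µg/mL. The controls received vehicle (0.1% DMSO) or no treatment. All groups were differentiated for 6 days in horse serum and then held for 24 h under their condition, and their labels name no dexamethasone. At the highest dose the viability calculated by the submitters was 80%. Dilution of the described stock alone would bring 0.004%, 0.02% and 0.1% DMSO with the 3 doses, and any further DMSO is not stated in the labels. The titles of all 15 libraries begin with Batch1, but the control libraries have sample codes of another series than the JGT libraries, so JGT and code series cannot be told apart in a comparison with a control, whereas comparisons between doses lie within 1 code series. Separate cultures for the libraries of a group are not stated in the labels, and the p-values measure only the spread between libraries, which may be technical.

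Pax7 is the transcription factor that defines satellite cells, and Cd34 is a sialomucin of the cell surface found on quiescent satellite cells. Gas1 is a membrane-anchored growth arrest protein that also serves as a co-receptor for hedgehog ligands. Cxcr4 is the receptor of the chemokine Cxcl12, Vcam1 binds the integrin α4β1, and Itga7 encodes the integrin subunit that pairs with β1 to bind laminin. Sdc3 and Sdc4 are syndecans, transmembrane proteoglycans whose heparan sulfate chains hold growth factors such as HGF and FGF2 near their receptors. In bulk RNA, fewer cells of a type and less RNA per cell cannot be told apart.

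Library totals ran from 26012844 to 36854199 expected counts, with a median of 29613890, and the lowest count of any of the 8 genes in a library was 401, for Cd34. JGT 500 µg/mL replicate 2 stood apart from its group, at 8.13 on the first principal component where the other 2 libraries lay at 25.3 and 27.0 and all other libraries at 0.281 or below. Mitochondrially encoded genes took 4.94% of its counts, 4.27% and 3.47% of those of the other 2, and between 4.74% and 4.94% of those of the vehicle libraries. The myotube label was borne out by the markers: all 15 myotube markers were measured, with a summed level of 22800 to 24300 CPM at JGT 500 µg/mL and 23300 to 24900 CPM in vehicle. CPM values are counts scaled to a common library size with TMM factors. Endothelial markers summed to between 2.55 and 3.74 CPM and blood cell markers to between 1.13 and 2.35 CPM over all 15 libraries, with Emcn and Tie1 at 0 in each.

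The 8 genes fell into 3 patterns at the highest dose. Relative to vehicle, JGT at 500 µg/mL gave a higher level of Gas1 (1.69-fold), a lower level of Vcam1 (0.694-fold), Cd34 (0.701-fold), Sdc3 (0.781-fold) and Pax7 (0.814-fold), and no call for Sdc4, Cxcr4 and Itga7. Thus 5 of 8 were called, 1 higher and 4 lower, where 33.3% of all tested genes were called, 16.5% higher and 16.8% lower. Calls needed an adjusted p below 0.05 (Benjamini-Hochberg over all tested genes) in edgeR's quasi-likelihood test. The median log2 fold change of the 8 genes was −0.17, against 0.0062 over all tested genes. For the 5 called genes the 3 JGT 500 µg/mL libraries did not overlap the 3 vehicle libraries, which was so for 40.1% of all tested genes.

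**Figure D1:**
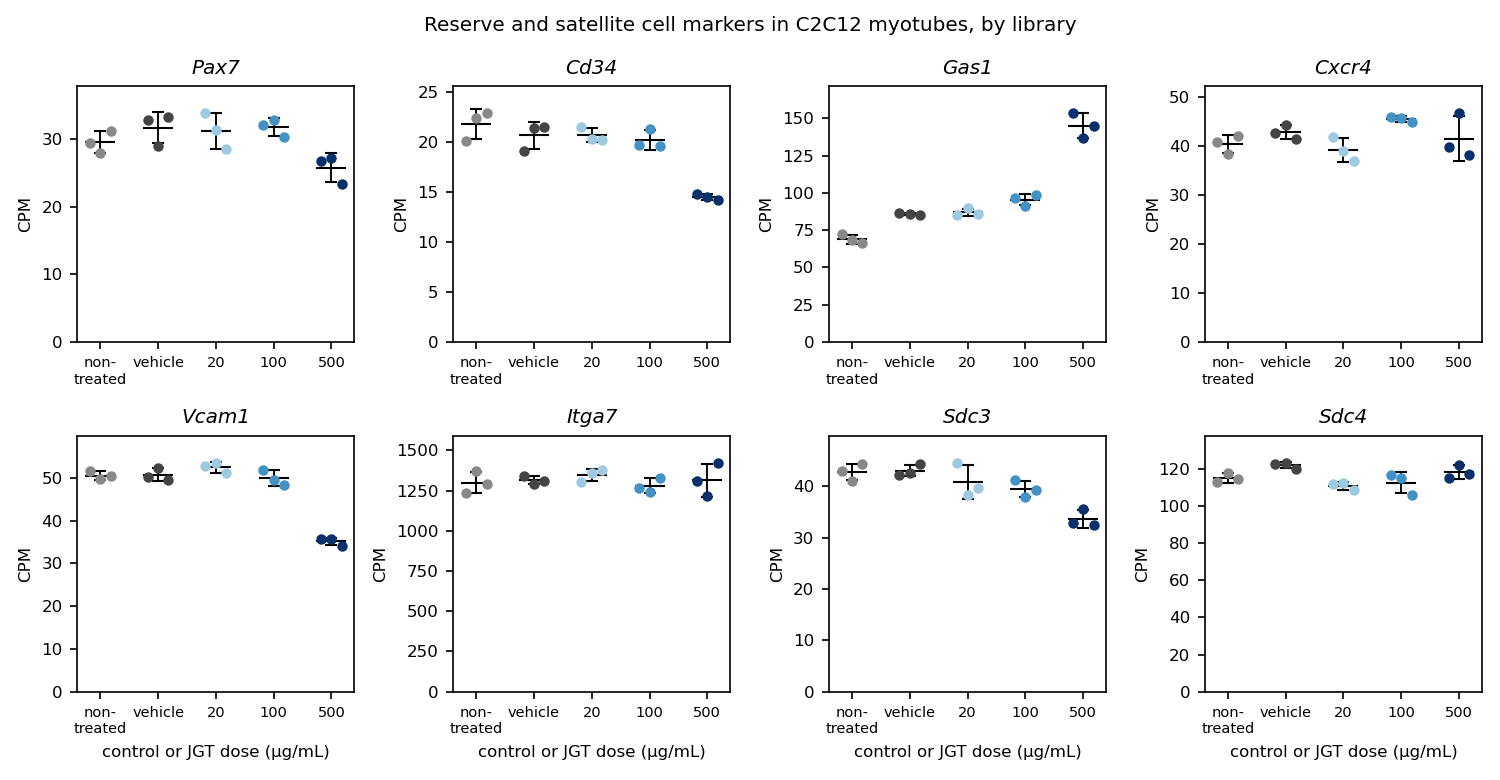
Level in CPM (vertical axis, from 0) of the 8 genes in each of the 15 libraries, by group (horizontal axis: non-treated, vehicle, and JGT at 20, 100 and 500 µg/mL). Points are libraries, and bars are the mean and SD of 3. Gas1 stands at 145 CPM at 500 µg/mL, above every other group, while Pax7, Cd34, Vcam1 and Sdc3 have their lowest mean there and Itga7, Sdc4 and Cxcr4 overlap vehicle.

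The stretches upstream of the start of 4 of these genes are shown because they belong to a gene that was higher (Gas1), 2 that were lower (Cd34 and Sdc3) and 1 that was not called (Sdc4) at the highest dose. RefSeq promoter windows (build GRCm38.p6) were found for 6 of the 8 genes. The 250 bases before the start are printed 5′ to 3′ on the gene's strand, with capitals for motif matches. They lie at chr13:60177536-60177785 (− strand) for Gas1, chr1:194938571-194938820 (+ strand) for Cd34, chr4:130792287-130792536 (+ strand) for Sdc3 and chr2:164443189-164443438 (− strand) for Sdc4.
Gas1: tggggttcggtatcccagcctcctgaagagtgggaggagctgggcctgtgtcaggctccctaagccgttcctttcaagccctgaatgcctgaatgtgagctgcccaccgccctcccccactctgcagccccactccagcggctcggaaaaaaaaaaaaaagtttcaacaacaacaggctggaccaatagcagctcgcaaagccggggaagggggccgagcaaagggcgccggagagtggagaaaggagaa
Cd34: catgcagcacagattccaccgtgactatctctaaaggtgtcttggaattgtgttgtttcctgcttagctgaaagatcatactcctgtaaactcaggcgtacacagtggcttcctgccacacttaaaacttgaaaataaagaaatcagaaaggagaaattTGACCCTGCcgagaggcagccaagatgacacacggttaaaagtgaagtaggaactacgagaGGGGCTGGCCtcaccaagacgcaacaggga
Sdc3: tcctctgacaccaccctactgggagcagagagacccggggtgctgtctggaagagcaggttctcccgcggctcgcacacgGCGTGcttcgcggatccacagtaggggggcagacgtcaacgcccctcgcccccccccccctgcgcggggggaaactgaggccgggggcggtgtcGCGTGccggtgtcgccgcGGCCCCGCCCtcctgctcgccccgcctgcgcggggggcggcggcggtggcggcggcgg
Sdc4: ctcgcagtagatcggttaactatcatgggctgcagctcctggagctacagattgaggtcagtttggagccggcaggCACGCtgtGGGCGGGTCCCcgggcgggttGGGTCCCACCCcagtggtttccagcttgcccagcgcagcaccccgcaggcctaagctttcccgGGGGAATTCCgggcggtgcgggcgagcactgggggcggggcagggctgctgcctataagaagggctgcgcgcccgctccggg

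Motifs were searched on both strands, and a match is a description of letters, not a site. The Gas1 window held no match to any motif searched. The Cd34 window held the antioxidant response element, spelled TGACNNNGC, at 91 bases before the start, as did 10.2% of 32851 promoter windows. It also held the NF-kB motif, searched as GGGNNNNNCC, at 30 bases before the start, which 45.8% of windows hold. The Sdc3 window held the core of the xenobiotic response element, GCGTG, at 170 and 76 bases before the start (28.2% of windows hold it), and the NF-kB motif at 58 bases. The Sdc4 window held that core at 174 bases and 5 matches to the NF-kB motif, of which neighbouring ones overlap. No E-box, searched as CANNTG, was present in any of the 6 windows, and 66.2% of all windows hold one. The AP-1 motif TGANTCA is held by 6.75% of all windows. The RBPJ motif TGGGAA is held by 21.6%, and the TATA box TATAAA by 12.4%. None of the 4 printed windows held these 3 motifs.

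Pax7 had 26.8, 27.2 and 23.4 CPM at JGT 500 µg/mL, against 32.9, 29.0 and 33.2 CPM in vehicle. Every JGT 500 µg/mL library lay below every vehicle library. The log2 fold change was −0.30 ± 0.0711 (SE, 95% interval −0.45 to −0.15, adjusted p = 0.00313 in edgeR's quasi-likelihood test). At 20 and 100 µg/mL the means were 31.2 ± 2.64 and 31.8 ± 1.32 CPM, beside 29.6 ± 1.66 CPM in non-treated and 31.7 ± 2.35 CPM in vehicle myotubes (SD, n = 3). The 500 µg/mL libraries were also below those at 100 µg/mL (log2 −0.30, adjusted p = 0.00522 in edgeR's test) and at 20 µg/mL (−0.28, 0.00719). The call against 20 µg/mL was lost when JGT 20 replicate 1 was left out (−0.22, adjusted p = 0.0534).

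Cd34 had 14.8, 14.5 and 14.2 CPM at JGT 500 µg/mL, against 19.1, 21.4 and 21.5 CPM in vehicle. The groups did not overlap, and the SD at 500 µg/mL was 0.318 CPM. The log2 fold change was −0.51 ± 0.0639 (SE, 95% interval −0.65 to −0.38, adjusted p = 3.03e-06 in edgeR's test). Means at the other conditions lay close together, at 21.8 CPM in non-treated, 20.7 CPM in vehicle, 20.7 CPM at 20 µg/mL and 20.2 CPM at 100 µg/mL, and neighbours in that order did not differ beyond their spread. Set against 100 and 20 µg/mL, the 500 µg/mL group was lower by log2 values of −0.48 and −0.51 (adjusted p = 1.14e-05 and 3.55e-06, edgeR).

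Gas1 had 153, 137 and 145 CPM at JGT 500 µg/mL, against 86.8, 85.8 and 85.1 CPM in vehicle. All 3 JGT 500 µg/mL libraries were above all others in the study. The log2 fold change was 0.76 ± 0.045 (SE, 95% interval 0.66 to 0.85, adjusted p = 6.03e-11 in edgeR's test), the 86th smallest p among the tested genes. Gas1 was 1 of the few genes that also differed between the controls, with 86.8, 85.8 and 85.1 CPM in vehicle, against 72.1, 68.2 and 66.4 CPM in non-treated myotubes. That difference (log2 0.32 ± 0.0459, SE, adjusted p = 0.00222 in edgeR's test) had the 7th smallest p of that comparison. Of the 8 genes, Gas1 was the 1 called between the controls, where 1.31% of all tested genes were called.

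The Gas1 level at 20 µg/mL was 84.9, 89.8 and 86.1 CPM, which overlaps vehicle (log2 0.02, adjusted p = 0.923). At 100 µg/mL it was 96.4, 91.4 and 98.7 CPM, all above the 3 vehicle libraries, but the difference was not called (0.15 ± 0.0451, SE, adjusted p = 0.0611 in edgeR's test). The means stood in the order non-treated (68.9 ± 2.90 CPM), vehicle (85.9 ± 0.881), 20 µg/mL (86.9 ± 2.56), 100 µg/mL (95.5 ± 3.73) and 500 µg/mL (145 ± 8.35; SD, n = 3). Between 100 and 20 µg/mL the libraries did not overlap, at a log2 difference of 0.14 (adjusted p = 0.3), and between 500 and 100 µg/mL the difference was 0.60 (4.33e-09, edgeR). Gas1 lies on chromosome 13 at 60174405 to 60177365 (GRCm38, − strand) and has 1 exon block. The annotation places the antisense noncoding gene Gm48488 over 589 bases of it, and the count table does not list Gm48488. Since the labels do not give the strand option of the counting, reads of Gas1 and Gm48488 cannot be told apart. Antisense genes also overlap exons of Sdc3 (415 bases by Gm26716, 48 by Gm12970), Cd34 (148 by Gm16897) and Vcam1 (61 by Gm43109). Of these, Gm43109 was not listed, Gm26716 and Gm12970 had a count of 0 in every library, and Gm16897 had at most 6.73.

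Cxcr4 had 39.9, 46.7 and 38.2 CPM at JGT 500 µg/mL, against 42.8, 44.4 and 41.6 CPM in vehicle. Replicate 2, the library that stood apart, was the highest of the 15, and the other 2 lay below all 3 vehicle libraries. The log2 fold change was −0.04 (95% interval −0.17 to 0.09, adjusted p = 0.639 in edgeR's test). Without JGT 500 replicate 2 Cxcr4 was called lower (−0.14, adjusted p = 0.0302), and without replicate 3 its value was 0.01 (0.907). At 100 µg/mL its 46.0, 45.8 and 44.9 CPM lay above all vehicle libraries, with a log2 fold change of 0.09 (adjusted p = 0.559), and at 20 µg/mL its 41.9, 38.9 and 36.9 CPM gave −0.13 (0.49).

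Vcam1 had 35.6, 35.8 and 34.2 CPM at JGT 500 µg/mL, against 50.3, 52.5 and 49.6 CPM in vehicle. The groups were far apart relative to their SDs of 0.876 CPM at 500 µg/mL and 1.5 CPM in vehicle. Its log2 fold change was −0.53 ± 0.042 (SE, 95% interval −0.62 to −0.44, adjusted p = 5.07e-09 in edgeR's test), the lowest estimate among the 8 genes. In every other condition the mean lay between 50 and 52.5 CPM, and the 500 µg/mL group was lower than those at 100 and 20 µg/mL by log2 values of −0.50 and −0.58 (adjusted p = 2.08e-08 and 1.56e-09, edgeR).

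Itga7 was by far the most abundant of the 8 genes. Whether myotubes or unfused cells held its RNA was not tested, so its level is not a measure of reserve cells alone. It had 1309, 1216 and 1420 CPM at JGT 500 µg/mL, against 1339, 1292 and 1312 CPM in vehicle. The groups overlapped, with a log2 fold change of 0.00063 and a 95% interval of −0.10 to 0.10 (adjusted p = 0.994 in edgeR's test). Its means in the 5 groups lay between 1280 and 1348 CPM, and none of the 7 comparisons was called. Counting error is small at this level, since the coefficient of variation between libraries was 1.79% to 7.77% where counting alone gives 0.472% to 0.525%.

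Of the 2 syndecans, Sdc3 was called at the highest dose and Sdc4 was not. Sdc3 had 32.8, 35.6 and 32.4 CPM at JGT 500 µg/mL, against 42.2, 42.6 and 44.3 CPM in vehicle, without overlap. Its log2 fold change was −0.36 ± 0.0552 (SE, 95% interval −0.47 to −0.24, adjusted p = 4.3e-05 in edgeR's test). The Sdc3 means over the doses were 40.8 ± 3.24 CPM at 20 µg/mL, 39.5 ± 1.61 at 100 µg/mL and 33.6 ± 1.73 at 500 µg/mL (SD, n = 3). The step between 20 and 100 µg/mL was within the spread (log2 −0.05, adjusted p = 0.959), and that between 100 and 500 µg/mL was called (−0.23, 0.00511, edgeR).

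Sdc4 had 115, 122 and 117 CPM at JGT 500 µg/mL, against 123, 123 and 120 CPM in vehicle. One JGT 500 µg/mL library lay within the vehicle range, and the log2 fold change was −0.04 (95% interval −0.13 to 0.04, adjusted p = 0.413 in edgeR's test). The lower doses had the lower Sdc4 levels, at 112, 112 and 109 CPM at 20 µg/mL and 117, 115 and 106 CPM at 100 µg/mL, all below the 3 vehicle libraries. Neither was called, at log2 −0.14 (adjusted p = 0.163) and −0.12 (0.116). Sdc3 and Sdc4 were not tested against each other.

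**Figure D2:**
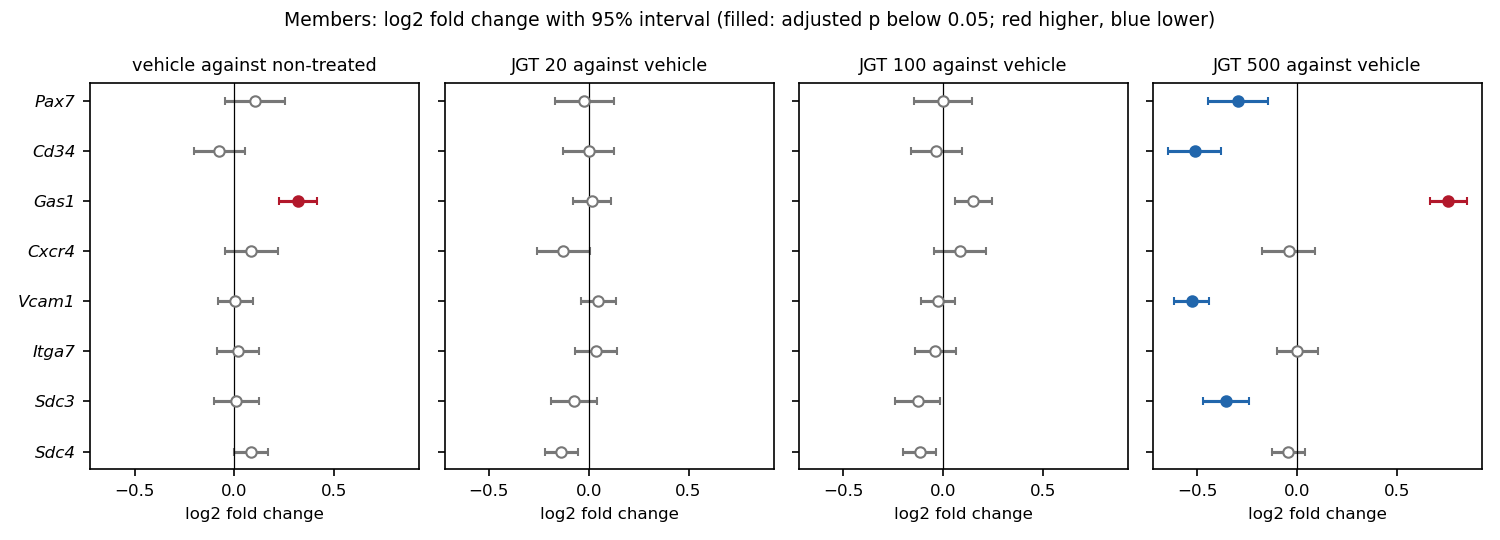
Log2 fold change (horizontal axis) with its 95% interval for the 8 genes in 4 comparisons, from vehicle against non-treated to JGT 500 µg/mL against vehicle. Filled points have an adjusted p below 0.05, red for higher and blue for lower. Gas1 is the only filled point between the controls (0.32), no point is filled at 20 or 100 µg/mL, and 5 are filled at 500 µg/mL.

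At 20 and 100 µg/mL no gene of the 8 was called against vehicle by edgeR or by DESeq2, where 0.325% and 4.31% of all tested genes were called by edgeR. At an unadjusted p below 0.05 there was 1 gene at 20 µg/mL (Sdc4, lower) and 3 at 100 µg/mL (Gas1 higher, Sdc3 and Sdc4 lower). The share of all tested genes at this unadjusted threshold is not given, so neither count can be read as above background. At 100 µg/mL Sdc3 ranked 1833 by p among the 14461 tested genes, so passing this threshold was common there. Libraries did not overlap for 1 of the 8 genes at 20 µg/mL and 4 at 100 µg/mL, compared with 20.9% and 26.3% of all tested genes. Between 100 and 20 µg/mL no gene of the 8 was called by either tool, where 0.429% of all tested genes were called by edgeR's adjusted p. At an unadjusted p below 0.05 there were 2 (Gas1 and Cxcr4, both higher at 100 µg/mL). The 0.429% does not apply to that count, and the share of all genes at the unadjusted threshold is not given. The steps up to 500 µg/mL held the calls, with the same 5 genes and directions against 100 µg/mL (19.7% of all tested genes called) and against 20 µg/mL (23.3%). These comparisons share libraries with those against vehicle.

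Per kilobase of exon, Itga7 had the highest level at JGT 500 µg/mL, at 163 ± 12.6 CPM per kb, against 162 ± 2.91 in vehicle (SD, n = 3). The length used is the union of the exons of all annotated transcripts. It can exceed the length of the expressed transcript, so the order of the genes can depend on it. Gas1, at 49.0 ± 2.82 CPM per kb at 500 µg/mL and 29.0 ± 0.297 in vehicle, was above Sdc4 in mean level at 500 µg/mL and below it in vehicle, since Sdc4 had 46.4 ± 1.42 at 500 µg/mL and 47.9 ± 0.636 in vehicle, and the difference between the genes was not tested. Cxcr4 followed, with 23.0 ± 2.5 CPM per kb at 500 µg/mL and 23.7 ± 0.785 in vehicle. The other 4 were lower by these levels, as Sdc3 had 5.61 ± 0.288, Pax7 4.40 ± 0.354, Vcam1 3.97 ± 0.0988 and Cd34 1.99 ± 0.0436 CPM per kb at 500 µg/mL, against 7.19 ± 0.184, 5.41 ± 0.401, 5.72 ± 0.169 and 2.84 ± 0.185 in vehicle.

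The gene lists described from here on were also chosen with earlier results of these data known. Shares called in them are descriptions and not independent support. Other genes of satellite and reserve cells were more often lower than higher at the highest dose. Of 27 such genes 25 were tested, and at JGT 500 µg/mL 13 were lower than vehicle (52%, against 16.8% of all tested genes), 2 were higher (8%, against 16.5%) and 10 were not called, with a median log2 fold change of −0.17, against 0.0062 over all tested genes. The 4 with the smallest p all fell: Cav1, the caveolin of membrane invaginations, had 56.1 ± 4.89 CPM at 500 µg/mL and 107 ± 4.02 CPM in vehicle (SD, n = 3; log2 −0.93), and Sox8, a transcription factor, had 6.64 ± 1.69 CPM at 500 µg/mL and 21.6 ± 0.685 CPM in vehicle (log2 −1.69). Tenm4, a teneurin of the cell surface, was lower by a log2 value of −1.02, and Heyl, a Notch target, by −0.86. The adjusted p of these 4 in edgeR's test was at most 4.26e-08. The 2 that rose were Spry1, an inhibitor of receptor tyrosine kinase signalling (log2 0.47, adjusted p = 1.54e-06), and Rbl2, a pocket protein of quiescent cells (0.15, 0.00485). Myod1, the factor of myogenic commitment, did not differ beyond its spread (0.01, adjusted p = 0.904), and Myf5 lay at −0.21 (0.144). Without JGT 500 replicate 2, 4 were higher and 15 lower.

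Spry1 was called higher than vehicle at all 3 doses. It had 24.7 ± 1.09 CPM at 20 µg/mL, 27.0 ± 0.518 at 100 µg/mL and 27.7 ± 0.87 at 500 µg/mL, against 20.1 ± 1.15 CPM in vehicle (SD, n = 3). The adjusted p in edgeR's test was 0.0174 at 20 µg/mL, 5.84e-05 at 100 µg/mL and 1.54e-06 at 500 µg/mL. The Spry1 call at 20 µg/mL was lost without vehicle replicate 1 or 3 or JGT 20 replicate 1 or 2, at log2 values of 0.27, 0.28, 0.29 and 0.27 (adjusted p between 0.079 and 0.166), whereas its calls at 100 and 500 µg/mL held without each library in turn. Hes1, another Notch target, was higher than vehicle at 20 µg/mL (log2 0.39, adjusted p = 0.00112) and 100 µg/mL (0.34, 0.000475) but not called at 500 µg/mL (0.12, 0.0833), where it was below its level at 20 µg/mL (−0.26, 0.00065, edgeR). At 100 µg/mL 4 genes of the list were lower: Cav1 (−0.25), Notch1, a Notch receptor (−0.20), Sox8 (−0.53) and Tenm4 (−0.42), and 19 were not called. Of all tested genes 4.31% were called at that dose, in either direction. The call of Cav1 was lost without vehicle replicate 2 or 3 or JGT 100 replicate 2 (adjusted p between 0.0508 and 0.0578) and that of Sox8 without vehicle replicate 3 (0.0538). At 20 µg/mL no gene was lower by edgeR's adjusted p, and 6 were lower at an unadjusted p below 0.05. Between the controls none of the 25 was called, with 7 at an unadjusted p below 0.05. The share of all tested genes at that unadjusted threshold is not given, so these counts cannot be set against it.

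Receptors, ligands and partners of the 8 proteins moved in both directions. Of 30 such genes 28 were tested, and at JGT 500 µg/mL 4 were higher than vehicle (14.3%, against 16.5% of all tested genes), 9 lower (32.1%, against 16.8%) and 15 not called, with a median log2 fold change of −0.07. Without JGT 500 replicate 2 the counts were 5 and 11. Itga4, the α chain of the Vcam1 receptor, had 6.61 ± 0.371 CPM at 500 µg/mL and 12.1 ± 0.199 CPM in vehicle (SD, n = 3; log2 −0.86, adjusted p = 3.46e-09 in edgeR's test). Its partner chain Itgb1 lay at −0.03 (adjusted p = 0.606), with 1150 ± 70.5 CPM at 500 µg/mL and 1170 ± 10.6 CPM in vehicle. The alternative partner Itgb7 was higher but rare, at 0.571 CPM at 500 µg/mL and 0.26 CPM in vehicle (adjusted p = 0.0162). Of the laminin chains that Itga7-containing integrins bind, Lama2 (−0.25) and Lamc1 (−0.11) were lower and Lama4 (0.27) and Lamb2 (0.16) higher, while Lama5 (−0.08, adjusted p = 0.0947) and Lamb1 (0.09, 0.0777) were not called. The calls of Itgb7 and Lamc1 were lost without vehicle replicate 1 (adjusted p = 0.0863 and 0.0609), and that of Lamb2 without vehicle replicate 2 or 3 or JGT 500 replicate 1 or 3 (up to 0.185).

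Hgf, the growth factor that binds heparan sulfate and activates satellite cells through the receptor Met, had 25.4 ± 3.45 CPM at JGT 500 µg/mL and 13.1 ± 0.379 CPM in vehicle (SD, n = 3; log2 0.96, adjusted p = 3.64e-09 in edgeR's test). It was also higher at 100 µg/mL (0.37, adjusted p = 0.006). Met itself was lower at 500 µg/mL (−0.17, 0.00506). The chemokine Cxcl12 was not called (0.18, 0.211). Among the other syndecans, Sdc1 was lower (−0.27, 0.000102) and Sdc2 not called (−0.04, 0.416), and Prkca, a kinase that binds Sdc4, was lower (−0.40, 9.11e-07). The hedgehog co-receptors that act beside Gas1 were lower, Cdon by −0.21 (adjusted p = 2.41e-05) and Boc by −0.24 (0.0161, but 0.0955 without vehicle replicate 2 and 0.054 without JGT 500 replicate 3), and the signal transducer Smo by −0.24 (0.000243). Ret, a receptor tyrosine kinase that Gas1 can bind, was at 1.06 CPM at 500 µg/mL and 2.14 CPM in vehicle (0.501-fold). The pathway's target genes Ptch1 (−0.03, adjusted p = 0.783) and Gli1 (−0.25, 0.364) were not called, and the ligand gene Shh was listed at 0 in every library.

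Enzymes that build and edit heparan sulfate, the chains of the syndecans, were lower more often than higher. Of 17 tested genes 8 were lower (47.1%, against 16.8% of all tested genes), 1 higher (5.88%, against 16.5%) and 8 not called at JGT 500 µg/mL, with a median log2 fold change of −0.15. Glce, which converts glucuronic to iduronic acid, was lower by a log2 value of −0.34 (adjusted p = 1.07e-05 in edgeR's test). The sulfotransferase genes Ndst1 (−0.24, 0.000232) and Hs2st1 (−0.17, 0.000348) were lower too, and B3gat3, which completes the linker of the chain, was higher (0.38, 0.000213). The lower calls of Ndst2 and Sulf2 were each lost without vehicle replicate 2 or 3 or JGT 500 replicate 1 or 3. Their adjusted p in edgeR's test then rose to as much as 0.199 and 0.167. At 20 and 100 µg/mL none of the 17 was called by edgeR, and at 100 µg/mL DESeq2 called 1. In each, 5 were lower at an unadjusted p below 0.05, for which the share of all genes is not given.

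Markers of other cell states were measured beside these genes, and their part in the results was not tested. All 14 proliferating cell markers were lower at JGT 500 µg/mL, where 16.8% of all tested genes were, with a median log2 fold change of −1.21. Their summed level was 308 to 330 CPM there, against 564 to 584 CPM in vehicle. At 100 µg/mL it was 481 to 490 CPM, with 9 of 14 lower, where 4.31% of all tested genes were called in either direction. At 20 µg/mL it was 527 to 543 CPM, with 0 called by edgeR, and in non-treated myotubes 668 to 678 CPM. Of 15 myotube markers, 4 were higher, 4 lower and 7 not called at 500 µg/mL, so that 53.3% were called where 33.3% of all tested genes were, with a median of 0.0097. The 4 higher were Myog, Casq2, Des and Tnnt3 and the 4 lower were Ckm, Atp2a1, Myh8 and Myh3, and 5 of the 15 were called, 2 higher and 3 lower, when vehicle replicate 2 was left out. The calls of Des, Tnnt3 and Myh3 were each lost without any 1 of 4 libraries.

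**Figure D3:**
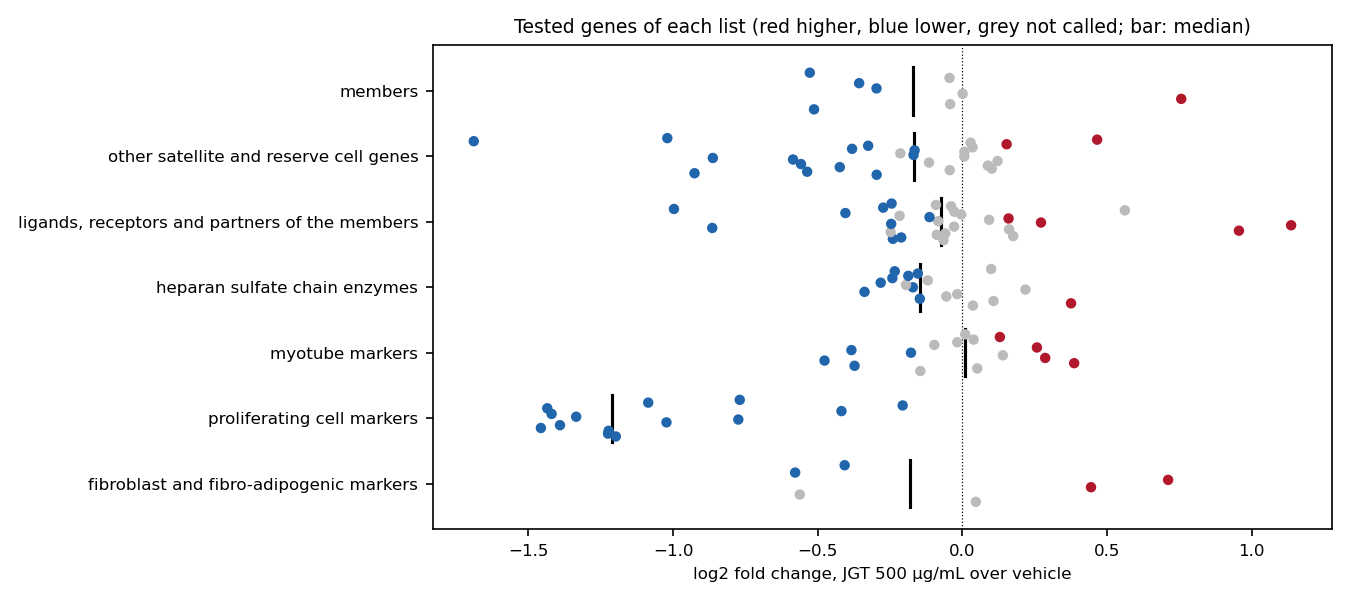
Log2 fold change at JGT 500 µg/mL over vehicle (horizontal axis) of each tested gene of 7 lists. Red points are called higher, blue lower and grey not called, and the bar is the list's median. The medians are −0.17 for the 8 genes and for the other satellite and reserve cell genes, and −1.21 for the proliferating cell markers, all of which are blue.

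For each of the 8 genes, the other genes whose log2 CPM over the 15 libraries was most like its own were sought among 9940 genes with a mean of at least 5 CPM. Each r shares the libraries and their depth, and since the JGT 500 µg/mL libraries lie apart, r over the other 12 libraries is given beside it. Pax7 was most like Cdk6 (Pearson's r 0.944 over 15 libraries and 0.853 over 12), Gas1 most like Hspb8 (0.973 and 0.928) and Sdc3 most like Gpr56 (0.958 and 0.824). Cd34 was most like Rad9a (0.966 and 0.765) and then Asf1b (0.961 and 0.574). Vcam1 was most like Myot (0.981 and 0.525) and Plat (0.978 and 0.373), the pair with the lowest r over 12 libraries among those named. For the 3 genes not called at 500 µg/mL, r changed little, with Ckb for Itga7 (0.913 and 0.883), Wbp2 for Cxcr4 (0.898 and 0.875) and Fbln1 for Sdc4 (0.841 and 0.866).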

How the data were processed

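RNA was extracted with TRIzol, prepared with a directional mRNA kit of MGI and sequenced in paired reads of 100 bases, per the labels' protocols. The submitters' processing notes name RSEM 1.3.3, STAR 2.7.3a, Trim Galore 0.6.5, FastQC 0.11.9 and the genome GRCm38 (mm10), without their roles, the annotation or the strand option. The authors deposited expected counts per gene symbol, not normalized, of which 9.34% were not whole (tolerance 0.005). They were rounded.

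Genes were kept with filterByExpr (14461), scaled by TMM and fitted over all 15 libraries with edgeR 4.0.16 (R 4.3.3, limma 3.58.1), with a mean per group and 10 residual degrees of freedom. The common dispersion was 0.00282. P-values are two-sided. All 8 genes and the lists were chosen with earlier results of these data known. Named from each list are the 4 genes with the smallest p and directions with 5 or fewer genes. Itgb1, Cxcl12, Sdc1, Sdc2, Boc, Smo, Ret, Met, Lama2, Lama5, Lamb1, Lamc1, Ptch1, Gli1, Myod1 and Myf5 were named after their values were seen. So were Ndst2 and Sulf2. For each of the 8 genes, the 2 genes of highest correlation were sought. Exon lengths and positions are from GENCODE M21. DESeq2 1.42.0, other scalings, no filter, a replicate block, fits of 2 groups and leaving out each library were tried. Same-numbered libraries of different groups did not deviate together, so the numbers were not taken as pairs. No pair of libraries agreed within sampling noise (mean chi-square per gene 2.02 to 35.6).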

Additional observations from a re-analysis of the deposited data

How the results depend on the processing

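Against vehicle at JGT 500 µg/mL, the calls of Gas1, Vcam1, Cd34, Sdc3 and Pax7 and their directions held under RLE factors, library totals, DESeq2, no filter, a fit of 2 groups and without each library in turn, where 5 to 6 of the 8 genes were called. In 35 of 672 values of the 8 genes under the alternatives the sign changed, with neither value called and none above 0.084 in size. With only the 2 groups compared, 2 of the 8 were called at 100 µg/mL (Gas1 0.15, adjusted p = 0.00433, and Sdc4 −0.11, 0.039), 1 at 20 µg/mL (Sdc4 −0.14, 0.0236) and 1 between 100 and 20 µg/mL (Cxcr4 0.21, 0.0166). Without the filter 1 was called at 100 µg/mL (Gas1 0.16, 0.0304). Without each library in turn, 5 to 6 were called between 500 and 100 µg/mL, 4 to 5 between 500 and 20 µg/mL, 1 to 1 between the controls and 0 to 0 elsewhere; the cause was not tested. Without JGT 500 replicate 2, Cxcr4 was also called lower than at 100 µg/mL (−0.23, adjusted p = 0.00111).

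Counts over all genes moved more. Fits of the 2 groups alone gave 1369 calls at 100 µg/mL (623 in the fit of all groups), 330 at 20 µg/mL (47), 1031 between the controls (189), 191 between 100 and 20 µg/mL (62), 1313 between 500 and 100 µg/mL (2853) and 1982 between 500 and 20 µg/mL (3369). DESeq2 gave 104 at 20 µg/mL and 326 between the controls, and no filter 73 at 20 µg/mL. Without each library in turn, calls ran from 3704 to 6323 at 500 µg/mL (4815), from 315 to 409 at 100 µg/mL, from 18 to 36 at 20 µg/mL, from 36 to 88 between the controls, from 19 to 41 between 100 and 20 µg/mL, from 1880 to 4989 between 500 and 100 µg/mL and from 2532 to 5165 between 500 and 20 µg/mL. The largest, 6323, came without JGT 500 replicate 2. With the replicate number as a block, 5 of the 8 genes and 4757 of all genes were called at 500 µg/mL and no call of the 8 genes changed in any comparison. Same-numbered pairs had a median correlation of −0.03 and 2 of 15 libraries correlated best with their own number. List counts moved by over 1.5 times, or from or to no call at all, in 79 of 672 cases, 2 of them at 500 µg/mL against vehicle. Among the partners at 100 µg/mL, the lower call of Itga4 (−0.23, adjusted p = 0.0447) was lost whenever 1 library of either group was left out. Depth limits Itgb7, Ret and Gli1 most, which lay near or below 2 CPM.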

Other observations

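Markers of fibroblasts and fibro-adipogenic cells, which share muscle with satellite cells, moved in both directions at JGT 500 µg/mL. Of 8 such genes 6 were tested, with 2 higher and 2 lower (33.3% each, where 16.5% of all tested genes were higher and 16.8% lower) and 2 not called. Pdgfra, a growth factor receptor of these cells, had 27.3 ± 1.16 CPM at 500 µg/mL and 16.7 ± 0.719 CPM in vehicle (SD, n = 3; log2 0.71, adjusted p = 3.54e-09 in edgeR's test). Ly6a, the surface antigen Sca-1, was higher by a log2 value of 0.44 (adjusted p = 0.000517). Pi16 (−0.58) and Tcf7l2 (−0.41) were lower. At 100 µg/mL Pdgfra (0.21, adjusted p = 0.033) and the proteoglycan gene Dcn (0.27, 0.0099) were higher. The Pdgfra call was lost without vehicle replicate 2 or 3 or JGT 100 replicate 1, 2 or 3 (adjusted p up to 0.174 in edgeR's test). The Dcn call was lost without vehicle replicate 1 or 3 or JGT 100 replicate 1 or 2 (up to 0.0608). The summed level of the list ran from 370 to 425 CPM at 500 µg/mL, 399 to 439 CPM at 100 µg/mL and 342 to 366 CPM in vehicle.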
